A study of Mus musculus with 8 samples.

Results

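The 37 genes described here encode the machinery that copies DNA in S phase: the replicative polymerases and primase, the sliding clamp and its loader, the single-strand binding complex, the enzymes that join Okazaki fragments, the enzymes that supply nucleotides, and factors for histone supply, repair, the replication checkpoint and entry into S phase. They were taken by gene symbol from an array that paired 18322 symbols with its probes and gave 25310 tested features in all. The 37 symbols matched 58 probes, and for each of the 19 genes with more than 1 probe the brightest stood for the gene.

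Expression had been measured in C57/BL6 mouse embryos after in utero knockdown of Foxo6, a transcription factor of the FoxO family. At E14.5 (embryonic day) an siRNA at 1 ug per ul, mixed with a GFP expression vector at 1 ug per ul, was injected into one lateral ventricle and electroporated into the cerebral wall with 5 pulses of 33 V. Cortices were isolated at E16.5, dissociated and sorted by flow cytometry on a gate the labels do not give, and the RNA came from pools of several cortices. The groups were siFoxO6-3 (4 pools), siFoxO6-2 (4 pools) and a scrambled, non-targeting siRNA (1 pool). All 3 groups carried the GFP vector and the same surgery. The labels call the 4 pools of each siRNA independent. Each pool was hybridized with the single scrambled pool on a two-colour array, so every value below is a log2 ratio of an siRNA pool over the scrambled pool, with the siRNA pool labelled in Cy5 for replicates 2 and 4 and in Cy3 for replicates 1 and 3. The siRNAs differ in sequence and are printed below. The part of the sequence in the values below was not tested. The labels write each with a leading pair of n, and do not say which strand is given.
siFoxO6-3: nnccaucagccuuaugacgcu
siFoxO6-2: nnacaugccagugacgacuac

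At a replication fork, DNA polymerase alpha with its primase lays down short primers, replication factor C loads the ring-shaped clamp PCNA onto them, and polymerases delta and epsilon extend them. Replication protein A coats the exposed single strand, and FEN1 and DNA ligase I finish the lagging strand. In the cortex at this stage the dividing cells are the progenitors that line the ventricle and the intermediate progenitors above them, while neurons have left the cell cycle, so these genes are used as marks of dividing cells. Many of them are transcribed under E2F factors as cells enter S phase.

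Of the 37 genes, 31 had a promoter in the RefSeq table for build GRCm38.p6, which gives 250 bases before and 50 after each start. The promoters were searched on both strands for 4 E2F-type motifs, TTTCGCGC, TTTGGCGC, TTCCCGCC and TTGGCGCC, of which TTTGGCGC and TTGGCGCC can overlap. At least 1 was found for 14 of the 31 genes (45.2%), against 1095 of the 27025 genes in the table (4.05%). The 14 were Pola1, Pold1, Pole2, Prim1, Rfc1, Rfc3, Rfc4, Lig1, Rrm1, Chaf1a, Msh6, Brca1, Chek1 and Clspn. With the 250 bases before the start alone the count was 5 of 31, against 3.40% of all genes. The motif was found for 6 of the 13 genes with a promoter that fell with siFoxO6-2 and for 8 of the other 18. In the 250 bases before the start alone it was found for 1 of those 13 and for 4 of those 18. A CCAAT box (CCAAT, both strands) was found for 15 of 31 genes (48.4%), against 41.1% of all genes, and the FoxO core GTAAACA only for Brca2 (1 of 31, against 4.05% of all genes). A match is a description of letters and not a binding site. The promoters of Pold1, Lig1 and Pole2, which fell with siFoxO6-2 and hold an E2F-type motif, are printed with that of Tyms, which fell and holds none of the 4 motifs. Capitals mark the E2F-type matches, and each sequence runs 5′ to 3′ along the gene. They lie at chr7:44548766-44549065 on the minus strand (Pold1), chr7:13278576-13278875 on the plus strand (Lig1, 1 of 3 promoters listed for it), chr12:69228141-69228440 on the minus strand (Pole2) and chr5:30073576-30073875 on the minus strand (Tyms). In Pole2 the capitals are 2 overlapping matches.
Pold1: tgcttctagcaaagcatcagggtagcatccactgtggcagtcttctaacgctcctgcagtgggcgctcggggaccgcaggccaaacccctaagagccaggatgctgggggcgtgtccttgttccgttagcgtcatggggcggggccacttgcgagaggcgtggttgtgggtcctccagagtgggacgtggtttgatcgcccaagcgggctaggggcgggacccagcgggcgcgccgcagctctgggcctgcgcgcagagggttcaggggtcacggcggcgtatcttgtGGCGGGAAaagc
Lig1: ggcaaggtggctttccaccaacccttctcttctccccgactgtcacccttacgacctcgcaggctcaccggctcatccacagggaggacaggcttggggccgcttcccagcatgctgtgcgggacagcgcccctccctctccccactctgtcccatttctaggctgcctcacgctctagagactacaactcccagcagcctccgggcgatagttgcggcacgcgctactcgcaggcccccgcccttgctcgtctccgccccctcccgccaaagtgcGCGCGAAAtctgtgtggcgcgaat
Pole2: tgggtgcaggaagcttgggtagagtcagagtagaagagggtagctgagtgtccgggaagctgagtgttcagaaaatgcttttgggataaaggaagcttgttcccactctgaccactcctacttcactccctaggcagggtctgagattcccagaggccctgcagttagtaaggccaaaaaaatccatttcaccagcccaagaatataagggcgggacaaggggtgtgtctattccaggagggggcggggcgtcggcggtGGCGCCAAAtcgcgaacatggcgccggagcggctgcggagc
Tyms: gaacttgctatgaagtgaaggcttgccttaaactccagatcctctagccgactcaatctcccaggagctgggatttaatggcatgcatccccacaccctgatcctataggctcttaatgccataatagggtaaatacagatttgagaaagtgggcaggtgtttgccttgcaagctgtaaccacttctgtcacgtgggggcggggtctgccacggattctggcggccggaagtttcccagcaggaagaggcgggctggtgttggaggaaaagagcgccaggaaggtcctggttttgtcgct

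Foxo6 itself fell with both siRNAs. Its mean log2 ratio was -1.65 ± 0.49 with siFoxO6-3 (limma adjusted p = 0.00788) and -0.95 ± 0.41 with siFoxO6-2 (SD, n = 4 each; limma adjusted p = 0.00553). The difference between the siRNAs was -0.71 (limma adjusted p = 0.312). Arrays differed in quality: siFoxO6-3 replicate 4, siFoxO6-3 replicate 3 and siFoxO6-2 replicate 3 resembled the others least, with median correlations across genes of 0.14, 0.28 and 0.26. In siFoxO6-3 replicate 4 the median siRNA-channel intensity was 58.0, the lowest of the 8. Of the 37 replication genes, 36 were above the empty control spots on all 8 arrays in both channels, and Ccne2 was above them on 7 of 8 arrays in the siRNA channel and 5 of 8 in the scrambled channel. No member was saturated. The defining genes of cortical progenitors (Sox2, Pax6, Hes5, Nes) and of cortical neurons (Tubb3, Dcx, Tbr1) were above the empty spots in both channels on all 8 arrays.

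The replication genes were lower with siFoxO6-2 and stood near the scrambled level with siFoxO6-3. The median log2 ratio over the 37 genes was -0.01 with siFoxO6-3, with 22 of 37 genes below 0, and -0.43 with siFoxO6-2, with 34 of 37 below 0. Over all 25310 features the medians were 0.0052 with siFoxO6-3 and -0.00090 with siFoxO6-2. Of these features, 47.5% were below 0 with siFoxO6-3 and 50.5% with siFoxO6-2. With siFoxO6-3, 0 of the 37 fell (0.478% of all features were called lower) and 1 rose (0.423% were called higher). With siFoxO6-2, 17 of the 37 fell (4.48% of all features were called lower) and 1 rose (4.3% were called higher). A gene was called when its adjusted p, from limma with Benjamini-Hochberg adjustment over all 25310 features, was under 0.05. At an unadjusted p under 0.05, 9 of the 37 passed with siFoxO6-3 (15.4% of all features did) and 28 with siFoxO6-2 (23.4% of all features). In pooled sorted cells, fewer cells in S phase and less of these RNAs per cell cannot be told apart.

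**Figure D1:**
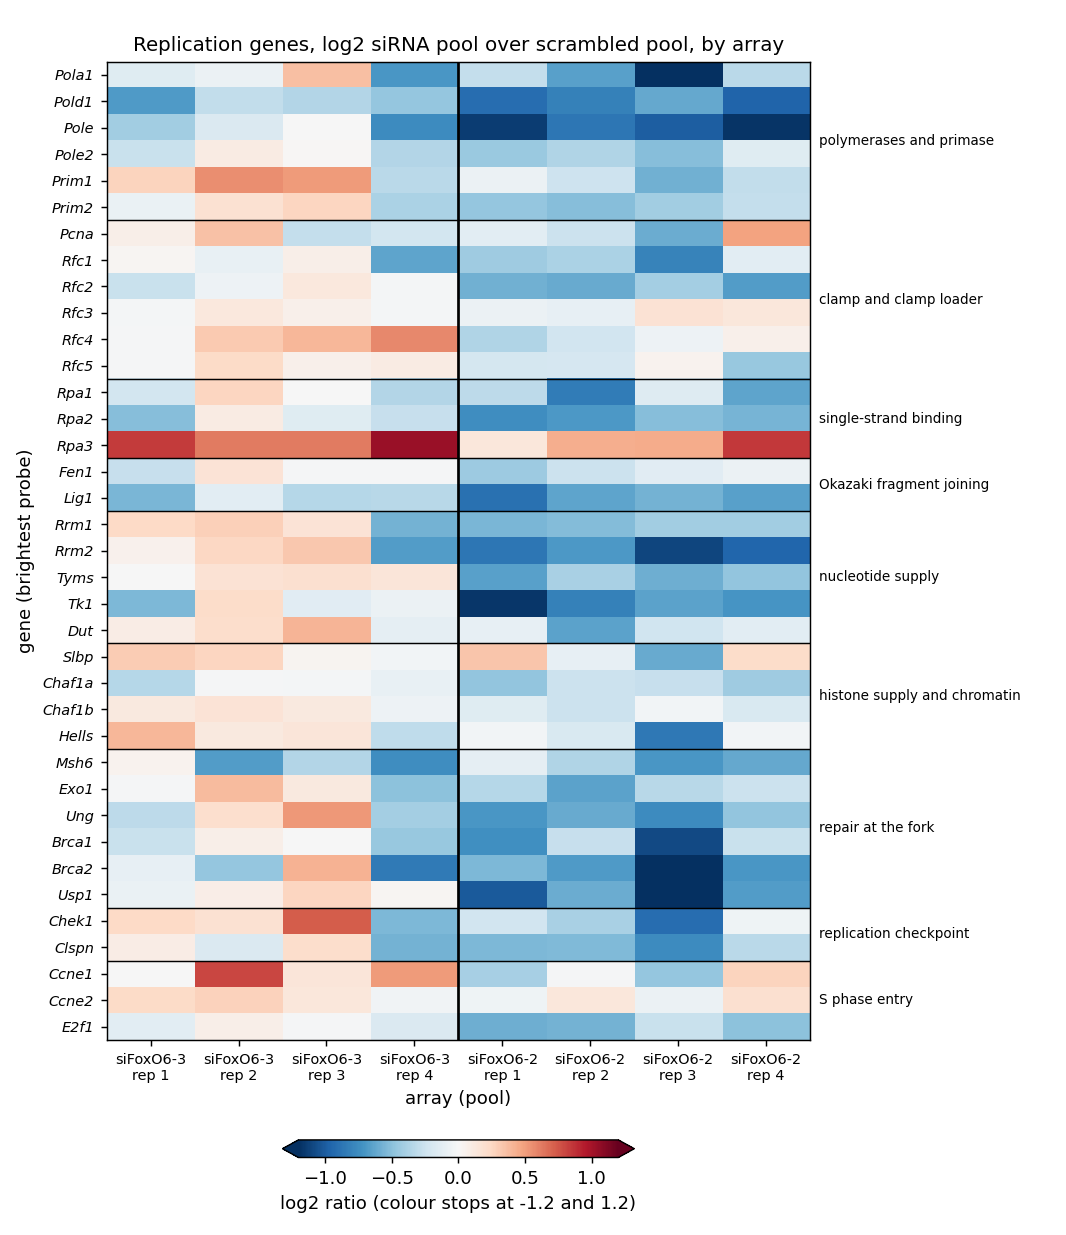
Log2 ratio of each siRNA pool over the scrambled pool for the 37 replication genes (rows, grouped by role) on the 8 arrays (columns, siFoxO6-3 left of siFoxO6-2), where blue is lower and red is higher than the scrambled pool. The siFoxO6-2 columns are mostly blue and the siFoxO6-3 columns mixed, with replicate 4 the bluest of them (31 of 37 genes below 0), while Rpa3 is red throughout.

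The shift was seen on single arrays. The median over the 37 genes was -0.02, 0.16, 0.12 and -0.30 on siFoxO6-3 replicates 1 to 4, and -0.44, -0.39, -0.57 and -0.32 on siFoxO6-2 replicates 1 to 4. Every siFoxO6-3 median was above every siFoxO6-2 median, although siFoxO6-3 replicate 4 lay next to the highest siFoxO6-2 array. The number of genes below 0 was 23, 10, 12 and 31 with siFoxO6-3, and 35, 35, 34 and 30 with siFoxO6-2. Of all 25310 features, 12584, 11882, 12115 and 12626 were below 0 on siFoxO6-3 replicates 1 to 4. For siFoxO6-2 replicates 1 to 4 these counts were 12826, 12490, 12817 and 12473. On all 4 arrays of its siRNA, a gene was below 0 in 4 of 37 cases with siFoxO6-3 and in 29 of 37 with siFoxO6-2. The share of all features below 0 on all 4 arrays was not computed. The arrays share the single scrambled pool, so their signs are not independent. The summed siRNA-channel intensity of the 37 genes was 12157 on siFoxO6-3 replicate 4, against 33450 to 39006 on the other siFoxO6-3 arrays, and the scrambled channel of the same array was also low, at 13372 against 30200 to 34553.

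Among the polymerase and primase genes, 4 of 6 fell with siFoxO6-2 and none with siFoxO6-3. Pold1 encodes the catalytic subunit of polymerase delta, which extends the lagging strand. It stood at -0.68, -0.30, -0.36 and -0.46 with siFoxO6-3, and at -0.91, -0.81, -0.61 and -0.96 with siFoxO6-2. It was below 0 on all 8 arrays, and the groups overlapped only through siFoxO6-3 replicate 1. Its mean was -0.45 ± 0.17 with siFoxO6-3 (limma adjusted p = 0.0573) and -0.82 ± 0.16 with siFoxO6-2 (SD, n = 4 each; limma adjusted p = 0.00462), or 0.565 of the scrambled level. Its second probe gave -0.36 with siFoxO6-3 and -0.80 with siFoxO6-2 (limma adjusted p = 0.00532 over all probes).

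Pole encodes the catalytic subunit of polymerase epsilon, which extends the leading strand. It stood at -0.41, -0.17, -0.01 and -0.75 with siFoxO6-3, and at -1.14, -0.87, -0.99 and -1.18 with siFoxO6-2. All 4 siFoxO6-3 arrays were above all 4 siFoxO6-2 arrays. Its mean of -0.34 ± 0.32 with siFoxO6-3 was not called, and it fell by 1.04 ± 0.14 with siFoxO6-2 (SD, n = 4 each; limma adjusted p = 0.0054), to 0.486 of the scrambled level. Another Pole probe was mostly no brighter than the empty spots. Pole2, the second subunit of the same polymerase, averaged -0.12 with siFoxO6-3 and fell by 0.36 with siFoxO6-2 (limma adjusted p = 0.0445). Prim2, the large primase subunit, averaged -0.0036 with siFoxO6-3 and fell by 0.42 with siFoxO6-2 (limma adjusted p = 0.0452). Prim1, the catalytic primase subunit, averaged 0.25 with siFoxO6-3 and -0.30 with siFoxO6-2, and Pola1, the catalytic subunit of polymerase alpha, averaged -0.14 with siFoxO6-3 and -0.69 with siFoxO6-2, and neither was called. Pola1 was lowest on siFoxO6-2 replicate 3, at -1.51, against -0.28 to -0.65 on the other siFoxO6-2 arrays.

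Among the clamp and loader genes, 1 of 6 fell with siFoxO6-2 and none with siFoxO6-3. Pcna encodes the sliding clamp that tethers the polymerases, and it is widely used as a mark of dividing cells. It stood at 0.07, 0.35, -0.29 and -0.22 with siFoxO6-3, and at -0.13, -0.26, -0.59 and 0.48 with siFoxO6-2. The groups overlapped across the whole range, with the highest value on siFoxO6-2 replicate 4. Its mean was -0.02 ± 0.29 with siFoxO6-3 (limma adjusted p = 0.965) and -0.12 ± 0.45 with siFoxO6-2 (SD, n = 4 each; limma adjusted p = 0.716). On some arrays its second probe was no brighter than the empty spots.

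Of the 5 clamp loader subunits, Rfc2 fell with siFoxO6-2. It stood at -0.27, -0.06, 0.13 and -0.03 with siFoxO6-3, and at -0.58, -0.61, -0.41 and -0.67 with siFoxO6-2. The groups did not overlap. Rfc2 averaged -0.06 ± 0.16 with siFoxO6-3 and fell by 0.57 ± 0.11 with siFoxO6-2 (SD, n = 4 each; limma adjusted p = 0.00698). Its second probe, brighter than the empty spots on every array too, gave 0.06 with siFoxO6-3 and -0.12 with siFoxO6-2 (limma adjusted p = 0.293), so the fall was seen on 1 of its 2 probes. The others were not called: Rfc1 averaged -0.16 with siFoxO6-3 and -0.43 with siFoxO6-2, Rfc3 averaged 0.04 with siFoxO6-3 and 0.03 with siFoxO6-2, Rfc4 averaged 0.32 with siFoxO6-3 and -0.15 with siFoxO6-2, and Rfc5 averaged 0.09 with siFoxO6-3 and -0.21 with siFoxO6-2.

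Of the 3 subunits of replication protein A, Rpa2 fell with siFoxO6-2 and Rpa3 rose with both siRNAs. Rpa2, the middle subunit, stood at -0.51, 0.10, -0.14 and -0.27 with siFoxO6-3, and at -0.75, -0.69, -0.51 and -0.56 with siFoxO6-2. The groups met only at siFoxO6-3 replicate 1. It averaged -0.21 ± 0.25 with siFoxO6-3 and fell by 0.63 ± 0.11 with siFoxO6-2 (SD, n = 4 each; limma adjusted p = 0.0102), and its second probe fell by 0.46 with siFoxO6-2 (limma adjusted p = 0.0244). Rpa1, the large subunit that holds most of the DNA-binding surface, averaged -0.08 with siFoxO6-3 and -0.48 with siFoxO6-2 (limma adjusted p = 0.0521), and was not called.

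Rpa3, the small subunit, was the 1 replication gene of the 37 that rose. It stood at 0.84, 0.63, 0.63 and 1.03 with siFoxO6-3, and at 0.14, 0.43, 0.45 and 0.85 with siFoxO6-2. It was above 0 on all 8 arrays. Its mean was 0.78 ± 0.19 with siFoxO6-3 (limma adjusted p = 0.032), or 1.72 times the scrambled level, and 0.47 ± 0.29 with siFoxO6-2 (SD, n = 4 each; limma adjusted p = 0.0345), or 1.38 times. The siRNAs overlapped, and the difference of 0.32, siFoxO6-3 minus siFoxO6-2, had a 95% interval of -0.02 to 0.65. It was no longer called with siFoxO6-3 without siFoxO6-2 replicate 1 or without any 1 of the siFoxO6-3 arrays (limma adjusted p = 0.06 to 0.157). It was no longer called with siFoxO6-2 without any 1 of the siFoxO6-2 arrays or without siFoxO6-3 replicate 3 (limma adjusted p = 0.0517 to 0.154), and it was above 0 each time. Rpa3 had 1 probe, and its promoter held none of the E2F-type motifs. Among the 13 genes with a promoter that fell with siFoxO6-2, only 6 held such a motif.

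Of the Okazaki fragment genes, Lig1 fell with siFoxO6-2. It encodes DNA ligase I, which seals the nicks between fragments. It stood at -0.55, -0.12, -0.34 and -0.33 with siFoxO6-3, and at -0.90, -0.63, -0.57 and -0.65 with siFoxO6-2. All 8 values were below 0, and the siFoxO6-3 arrays were all above the siFoxO6-2 arrays. The mean was -0.34 ± 0.17 with siFoxO6-3 (limma adjusted p = 0.0707) and -0.69 ± 0.14 with siFoxO6-2 (SD, n = 4 each; limma adjusted p = 0.00462). Fen1, the nuclease that trims the fragment ends, averaged -0.03 with siFoxO6-3 and -0.22 with siFoxO6-2 and was not called.

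Of the 5 nucleotide supply genes, 3 fell with siFoxO6-2 and none with siFoxO6-3. Tyms encodes thymidylate synthase, which makes the thymidine nucleotide. It stood at -0.01, 0.18, 0.19 and 0.14 with siFoxO6-3, and at -0.65, -0.39, -0.59 and -0.47 with siFoxO6-2. The groups did not overlap, and siFoxO6-3 lay around or above 0. Tyms averaged 0.13 ± 0.09 with siFoxO6-3 and fell by 0.53 ± 0.12 with siFoxO6-2 (SD, n = 4 each; limma adjusted p = 0.00459). The second-brightest of its 4 probes gave 0.12 with siFoxO6-3 and -0.37 with siFoxO6-2 (limma adjusted p = 0.0163). The others gave 0.22 and -0.24 with siFoxO6-3 and -0.30 and -0.13 with siFoxO6-2, and were not called.

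Rrm2 encodes the small subunit of ribonucleotide reductase, the enzyme that turns ribonucleotides into deoxyribonucleotides. It stood at 0.05, 0.25, 0.32 and -0.67 with siFoxO6-3, and at -0.86, -0.69, -1.10 and -0.95 with siFoxO6-2. The groups did not overlap, but siFoxO6-3 replicate 4 lay just above siFoxO6-2 replicate 2. Rrm2 averaged -0.01 ± 0.45 with siFoxO6-3 and fell by 0.90 ± 0.17 with siFoxO6-2 (SD, n = 4 each; limma adjusted p = 0.0166). Tk1, the cytosolic thymidine kinase that salvages thymidine, stood at -0.54, 0.22, -0.14 and -0.07 with siFoxO6-3, and at -1.17, -0.81, -0.64 and -0.71 with siFoxO6-2. The groups did not overlap. Tk1 averaged -0.13 ± 0.31 with siFoxO6-3 and fell by 0.83 ± 0.23 with siFoxO6-2 (SD, n = 4 each; limma adjusted p = 0.00782). Rrm1, the large reductase subunit, averaged 0.03 with siFoxO6-3 and -0.48 with siFoxO6-2 (limma adjusted p = 0.0626), and Dut, which destroys dUTP, averaged 0.15 with siFoxO6-3 and -0.28 with siFoxO6-2.

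Of the 4 genes for histone supply and chromatin, Chaf1a fell with siFoxO6-2. It encodes the large subunit of chromatin assembly factor 1, which places new histones behind the fork. It stood at -0.34, -0.01, -0.02 and -0.09 with siFoxO6-3, and at -0.47, -0.26, -0.27 and -0.43 with siFoxO6-2. The groups overlapped through siFoxO6-3 replicate 1. Chaf1a averaged -0.12 ± 0.15 with siFoxO6-3 and fell by 0.36 ± 0.11 with siFoxO6-2 (SD, n = 4 each; limma adjusted p = 0.0195). Its partner Chaf1b averaged 0.09 with siFoxO6-3 and -0.16 with siFoxO6-2, the chromatin remodeller Hells averaged 0.09 with siFoxO6-3 and -0.28 with siFoxO6-2, and Slbp, which binds histone mRNA, averaged 0.14 with siFoxO6-3 and -0.04 with siFoxO6-2. None of these 3 was called.

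Of the 6 genes for repair at the fork, 4 fell with siFoxO6-2. Usp1 encodes a deubiquitinase that acts on PCNA and on the Fanconi anaemia protein FANCD2. It stood at -0.08, 0.08, 0.26 and 0.02 with siFoxO6-3, and at -1.01, -0.60, -1.92 and -0.67 with siFoxO6-2. The groups did not overlap, and siFoxO6-2 replicate 3 was far below the rest. Usp1 averaged 0.07 ± 0.14 with siFoxO6-3 and fell by 1.05 ± 0.61 with siFoxO6-2 (SD, n = 4 each; limma adjusted p = 0.0152). Brca1, which acts in homologous recombination and fork protection, stood at -0.27, 0.07, -0.0038 and -0.45 with siFoxO6-3, and at -0.73, -0.28, -1.08 and -0.27 with siFoxO6-2. The groups overlapped, and siFoxO6-2 replicate 3 was again the lowest. Brca1 averaged -0.16 ± 0.24 with siFoxO6-3 and fell by 0.59 ± 0.39 with siFoxO6-2 (SD, n = 4 each; limma adjusted p = 0.0358). Its other probe was no brighter than the empty spots on some arrays.

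Brca2, which acts in repair by homologous recombination, averaged -0.25 with siFoxO6-3 and fell by 0.80 with siFoxO6-2 (limma adjusted p = 0.0438). Ung, which removes uracil from DNA, averaged -0.00 with siFoxO6-3, with values from -0.40 to 0.52, and fell by 0.63 with siFoxO6-2 (limma adjusted p = 0.0432). The mismatch repair gene Msh6 averaged -0.43 with siFoxO6-3 and -0.45 with siFoxO6-2 and was called with neither (limma adjusted p = 0.158 with siFoxO6-3 and 0.0657 with siFoxO6-2). The nuclease gene Exo1 averaged -0.0017 with siFoxO6-3 and -0.39 with siFoxO6-2 and was not called.

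Of the checkpoint genes, Clspn fell with siFoxO6-2. It encodes claspin, the adaptor through which ATR activates CHK1. It stood at 0.09, -0.17, 0.21 and -0.56 with siFoxO6-3, and at -0.54, -0.53, -0.75 and -0.32 with siFoxO6-2. The groups overlapped through siFoxO6-3 replicate 4. Clspn averaged -0.11 ± 0.34 with siFoxO6-3 and fell by 0.54 ± 0.18 with siFoxO6-2 (SD, n = 4 each; limma adjusted p = 0.0381), and Chek1, which encodes CHK1, averaged 0.15 with siFoxO6-3 and -0.40 with siFoxO6-2 without being called.

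Of the 3 genes for entry into S phase, E2f1 fell with siFoxO6-2. It encodes a transcription factor that drives many of the genes above. E2f1 stood at -0.13, 0.07, -0.01 and -0.17 with siFoxO6-3, and at -0.59, -0.56, -0.26 and -0.49 with siFoxO6-2. The groups did not overlap. E2f1 averaged -0.06 ± 0.11 with siFoxO6-3 and fell by 0.48 ± 0.15 with siFoxO6-2 (SD, n = 4 each; limma adjusted p = 0.00953). Its second probe, brighter than the empty spots throughout, gave 0.11 with siFoxO6-3 and -0.08 with siFoxO6-2 (limma adjusted p = 0.222). The cyclin E genes, which partner CDK2 at the start of S phase, were not called: Ccne1 averaged 0.36 with siFoxO6-3 and -0.15 with siFoxO6-2, and Ccne2 averaged 0.15 with siFoxO6-3 and 0.05 with siFoxO6-2. The second Ccne1 probe, brighter than the empty spots on every array too, gave -0.15 with siFoxO6-3 and -0.16 with siFoxO6-2.

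**Figure D2:**
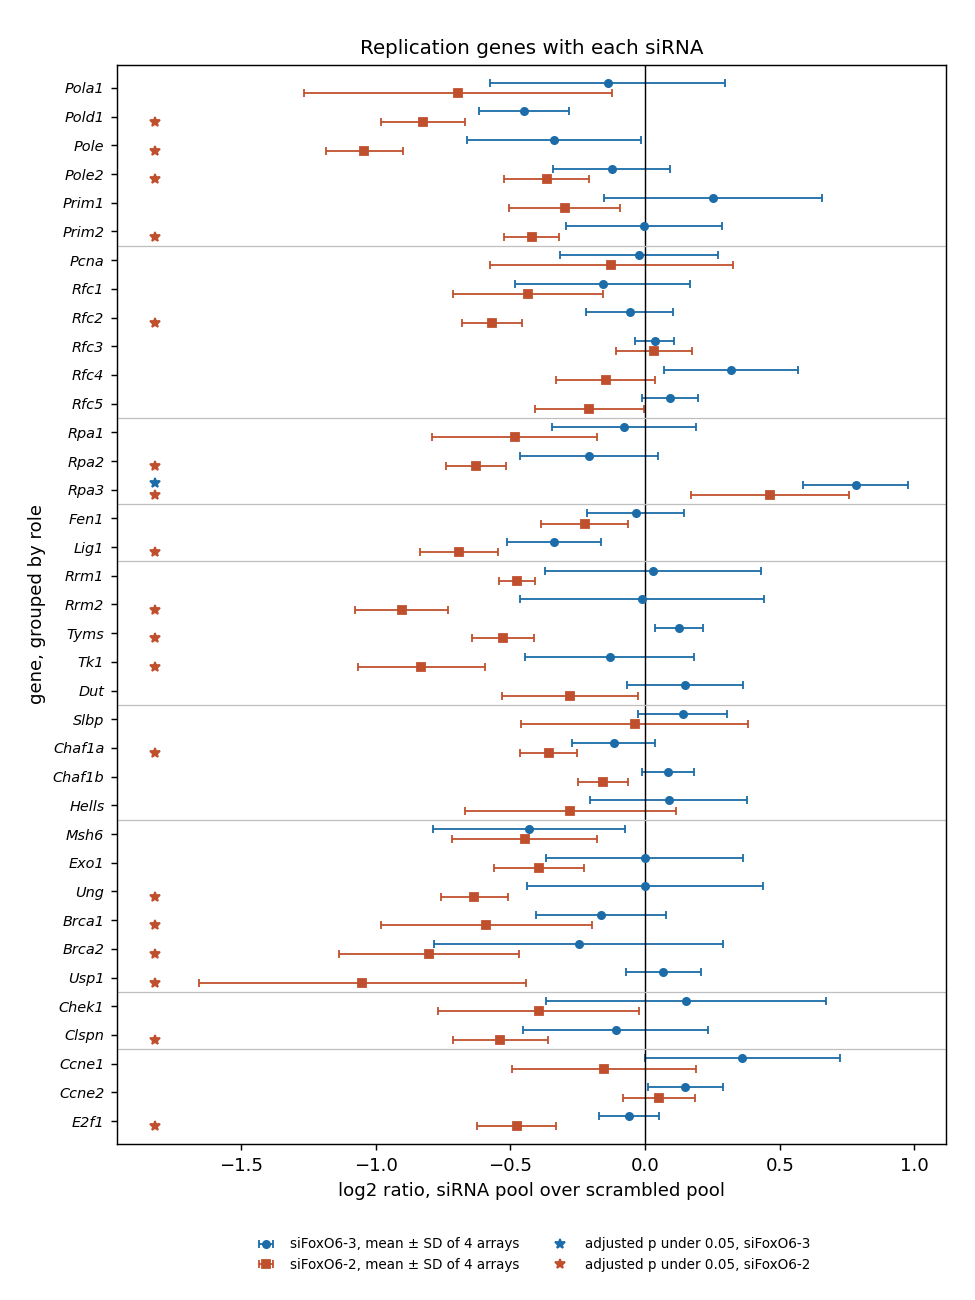
Mean log2 ratio over the scrambled pool for each of the 37 genes, with SD over 4 arrays, for siFoxO6-3 (blue circles, upper of each pair) and siFoxO6-2 (orange squares), and a star where the limma adjusted p was under 0.05. The 17 falls are all with siFoxO6-2, and Rpa3 is the 1 gene starred for both.

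The calls against the scrambled pool depended on the normalization and on that pool. Loess sets the typical feature to 0 at each brightness, and 30 of the 37 genes were in brightness deciles 8 to 10. With median centring of each array in its place, which moved the median of all features to 0.11 with siFoxO6-3 and 0.093 with siFoxO6-2, the brightest decile of all features had a median of 0.63 with siFoxO6-3 and 0.67 with siFoxO6-2. The replication genes then had medians of 0.41 with siFoxO6-3 and 0.017 with siFoxO6-2, and 0 of the 37 and 0 of all 25310 features were called. For the 12 of them in the brightest decile the median was 0.73 with siFoxO6-3 and 0.37 with siFoxO6-2, so with siFoxO6-2 their median lay below that of all features of like brightness under both methods. Of the 17 that fell, 14 were still below 0 with siFoxO6-2 after centring, and Pole2 (0.0047), Prim2 (0.097) and Tyms (0.075) were above it. The p-values against the scrambled pool leave out the spread of that pool, since only 1 existed; with the pool taken to vary as an siRNA pool does, 0 of the 37, and 0 of all features, were called with either siRNA. The number of the 37 called with siFoxO6-2 was 6 without siFoxO6-2 replicate 1, 10 without siFoxO6-2 replicate 2 and 5 without siFoxO6-2 replicate 4, against 18 with all arrays. Calls over all features were also fewer, with 383 without siFoxO6-2 replicate 1, 975 without replicate 2 and 352 without replicate 4, against 2224 with all arrays.

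**Figure D3:**
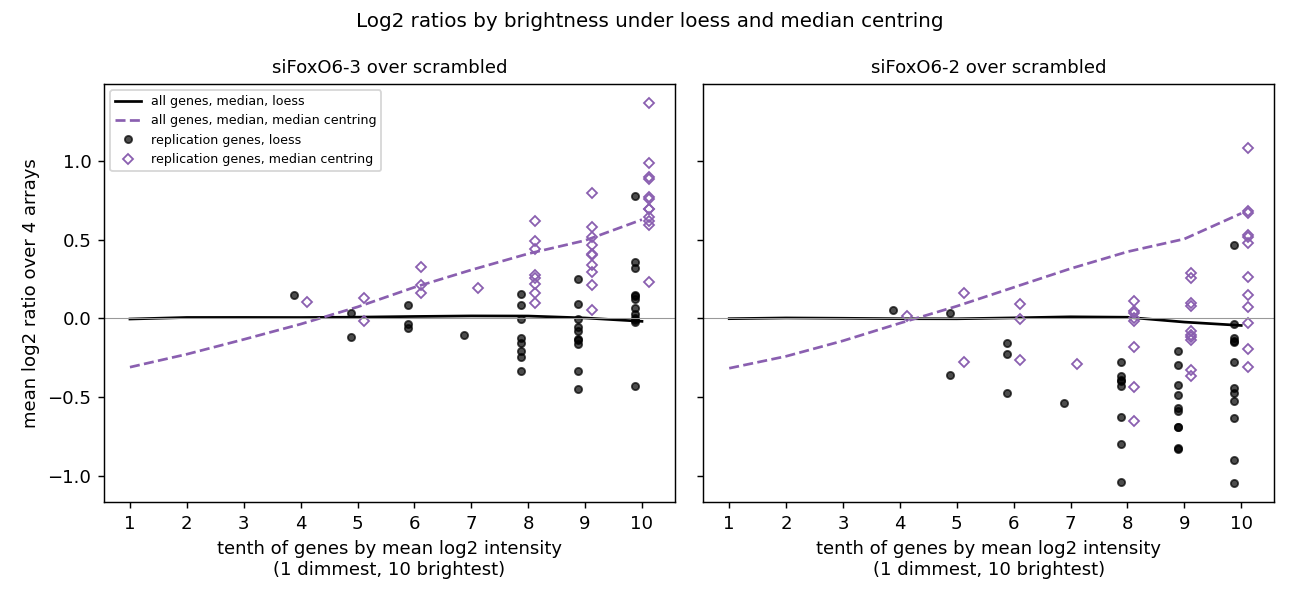
Mean log2 ratio by brightness, in deciles of all features from dimmest to brightest, with siFoxO6-3 at the left and siFoxO6-2 at the right; lines are the median of all features and points are the 37 replication genes, in black after loess and in purple after median centring. After centring the line climbs to 0.63 with siFoxO6-3 and 0.67 with siFoxO6-2 in decile 10, and most siFoxO6-2 points lie below the line under either method.

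The scrambled pool cancels when the siRNAs are set against each other, so this comparison has replicates on both sides. In siFoxO6-3 minus siFoxO6-2, all 37 genes were above 0 on their brightest probe, while 48.1% of all features were below 0. The median was 0.42 against 0.0044 over all features. Second probes brighter than the empty spots on every array differed by -0.01 (Rfc1), 0.01 (Ccne1), 0.18 (Rfc2) and 0.20 (E2f1). The same held for Chek1 (0.26), Rpa2 (0.34), Pold1 (0.44) and Dut (0.56), which were higher, and Tyms is given below. None of the 37 was called (0.00395% of all features were, which is 1 gene), and the smallest limma adjusted p was 0.107, for Tyms. At an unadjusted p under 0.05, 22 of the 37 passed, against 1838 of all features (7.26%). In 9 genes the 4 siFoxO6-3 arrays were all above the 4 siFoxO6-2 arrays (2.09% of all features did the same), and in 0 genes all below. The 9 were Pole, Rfc2, Lig1, Rrm2, Tyms, Tk1, Ung, Usp1 and E2f1.

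The largest differences were in Usp1 (1.12, 95% interval 0.54 to 1.69), Rrm2 (0.89, 0.38 to 1.40), Pole (0.71, 0.33 to 1.08) and Tk1 (0.70, 0.35 to 1.05). Tyms differed by 0.65 on its brightest probe, with an interval of 0.50 to 0.80, and by 0.49, 0.52 and -0.11 on its other probes. All 5 nucleotide supply genes had an interval above 0. At the other end, Rfc3 differed by 0.0014 (-0.20 to 0.20), Msh6 by 0.02 (-0.38 to 0.42), Ccne2 by 0.10 (-0.12 to 0.32) and Pcna by 0.10 (-0.40 to 0.61). Over the 37 genes, 15 intervals held 0. These intervals are limma's for single genes, without adjustment for the number of features.

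The direction of the difference was kept in most genes by the other normalization. With median centring its median over the 37 genes was 0.41, with 35 of 37 genes above 0 and Rfc3 and Msh6 below it, and 0 of the 37 then had an unadjusted p under 0.05, as few features did (0.593% of all). In the arrays with the siRNA pool in Cy3 alone, siFoxO6-3 was above siFoxO6-2 in 36 of 37 genes, and in those with it in Cy5 in 33 of 37, against 50.6% of all features in Cy3 and 51.5% in Cy5. Without siFoxO6-3 replicate 4 the median difference was 0.49 and 28 genes had an unadjusted p under 0.05, as did 7.13% of all features. The part of the Foxo6 difference of -0.71 (limma adjusted p = 0.312) in these values was not tested.

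**Figure D4:**
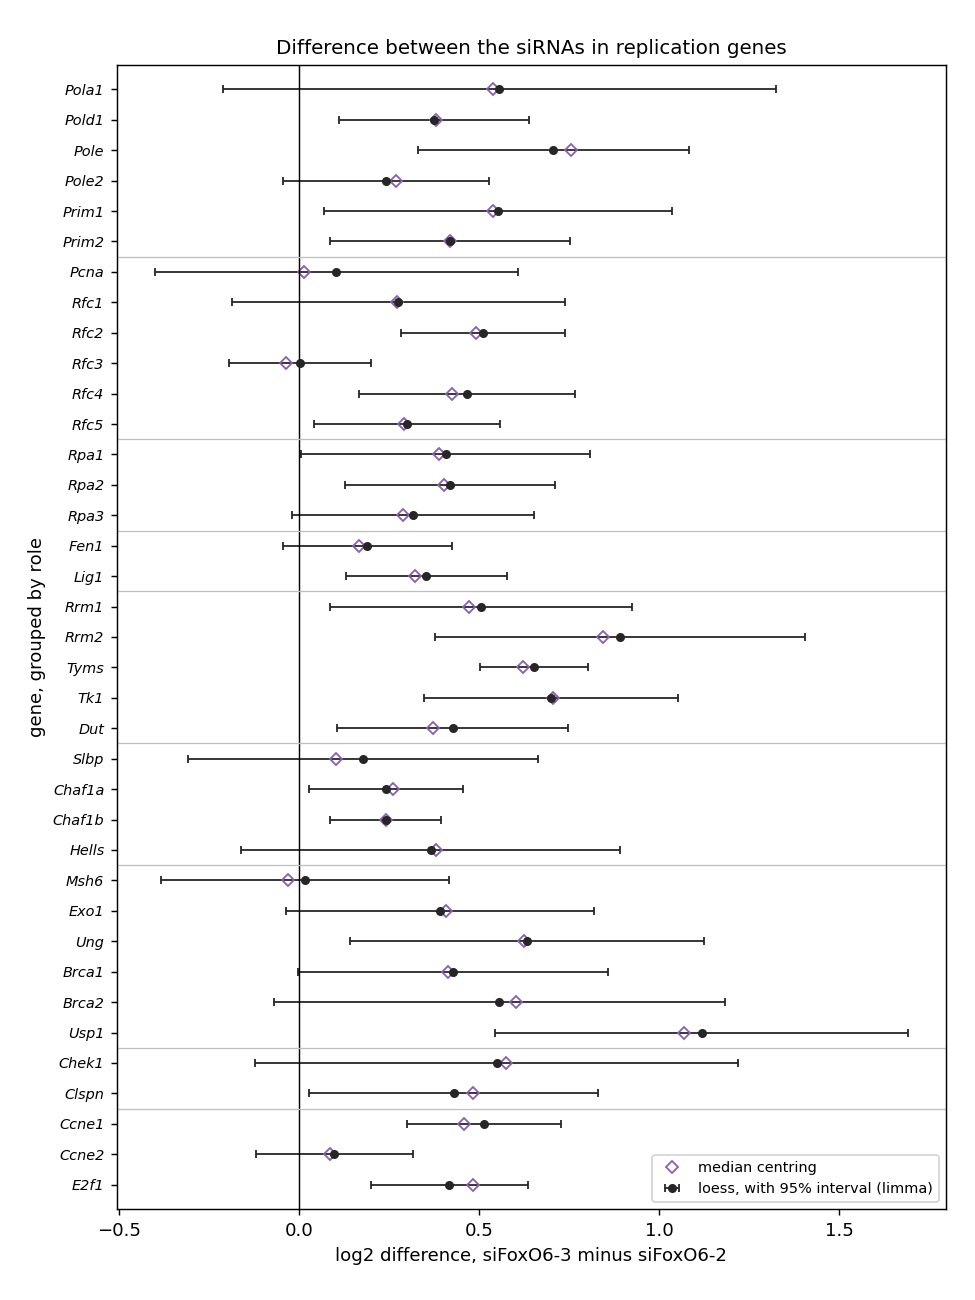
Log2 difference siFoxO6-3 minus siFoxO6-2 for each replication gene, as black circles with the limma 95% interval after loess and as open purple diamonds after median centring. All 37 circles are above 0, from 0.0014 for Rfc3 to 1.12 for Usp1, and the diamonds of Rfc3 and Msh6 are below it.

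Other genes of the same processes were measured as lists. Of 48 further fork and nucleotide genes on the array, 0 rose and 5 fell with siFoxO6-2, and none was called with siFoxO6-3; the list's medians were -0.00063 with siFoxO6-3 and -0.25 with siFoxO6-2. Chtf18, part of an alternative clamp loader, averaged -0.26 ± 0.16 with siFoxO6-3 and fell by 0.87 ± 0.24 with siFoxO6-2 (SD, n = 4 each; limma adjusted p = 0.00459). Mcm10, which helps to start the fork, averaged -0.13 ± 0.22 with siFoxO6-3 and fell by 0.86 ± 0.19 with siFoxO6-2 (SD, n = 4 each; limma adjusted p = 0.00533). Of 16 genes of the MCM helicase and origin licensing, 8 fell and 1 rose with siFoxO6-2 and none was called with siFoxO6-3. The helicase subunit Mcm2 averaged -0.25 with siFoxO6-3 and fell by 1.26 with siFoxO6-2 (limma adjusted p = 0.00498), Mcm3 averaged -0.33 with siFoxO6-3 and fell by 1.35 with siFoxO6-2 (limma adjusted p = 0.0054), and the loading factor Cdc6 averaged -0.21 with siFoxO6-3 and fell by 0.66 with siFoxO6-2 (limma adjusted p = 0.0047). The 1 that rose was the origin subunit gene Orc5 (0.24, limma adjusted p = 0.0299).

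Genes of G2 and M phase, which act after DNA synthesis, had medians of 0.29 with siFoxO6-3 and -0.23 with siFoxO6-2 over the 25 measured. Of these, 5 fell with siFoxO6-2, among them the spindle genes Prc1 (-0.86, limma adjusted p = 0.0115), Tpx2 (-0.60, limma adjusted p = 0.0127) and Cdca8 (-0.52, limma adjusted p = 0.0101). With siFoxO6-3 none was called and 1 of 25 was below 0. In siFoxO6-3 minus siFoxO6-2, the median was 0.57 for these genes, 0.25 for the MCM and licensing genes, 0.25 for the other fork genes and 0.42 for the 37, and none of these genes was called. Within the MCM and licensing list, Mcm2 to Mcm7 differed by 0.52 to 1.02, Cdc6 by 0.45 and Cdt1 by 0.33. The Orc genes, Cdc7 and Dbf4 lay between -0.11 and 0.17.

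Markers of the cell types that the sort could hold were examined beside these values. Of 11 apical progenitor markers, 0 rose and 3 fell with siFoxO6-2 (Nes by 0.65, Sox9 by 0.79 and Pax6 by 0.39; limma adjusted p = 0.01, 0.0207 and 0.0393), none was called with siFoxO6-3, and the summed level of the list ran from -0.16 to 0.67 with siFoxO6-3 and from -0.35 to 0.42 with siFoxO6-2 (log2 over the scrambled pool, 4 arrays each). The median of the 11 was -0.09 with siFoxO6-3, with 7 of 11 below 0, and -0.30 with siFoxO6-2, with 8 of 11 below 0. Hes5 (-0.88 with siFoxO6-3 and -0.92 with siFoxO6-2) and Id4 (-0.48 with siFoxO6-3 and -0.49 with siFoxO6-2) were low with both siRNAs without being called. Of the 11, 3 averaged above 0 with siFoxO6-2 without being called: Fabp7 (0.71 with siFoxO6-3 and 0.43 with siFoxO6-2), Sox2 (0.28 with siFoxO6-3 and 0.35 with siFoxO6-2) and Slc1a3 (0.66 with siFoxO6-3 and 0.23 with siFoxO6-2). Of 9 microglia markers, 4 rose with siFoxO6-2 (Ctss at 1.60, Aif1 at 0.42, Csf1r at 0.75 and P2ry12 at 0.41; limma adjusted p = 0.00134, 0.00462, 0.00698 and 0.0474), none was called with siFoxO6-3, and the summed level ran from 0.16 to 0.28 with siFoxO6-3 and from 0.60 to 0.95 with siFoxO6-2. The median over the 9 was 0.13 with siFoxO6-3 and 0.11 with siFoxO6-2, so the summed level did not stand for the whole list. In siFoxO6-3 minus siFoxO6-2 the median of the microglia markers was -0.02, with 5 of 9 below 0. The microglia markers Cx3cr1 (0.05 with siFoxO6-3 and -0.04 with siFoxO6-2) and Tmem119 (-0.06 with siFoxO6-3 and -0.07 with siFoxO6-2) stood near 0. P2ry12 was above the empty spots in the scrambled channel on 3 of 8 arrays. No intermediate progenitor (7 measured), cortical neuron (9), interneuron (6) or erythroid (5) marker was called with either siRNA, and of 7 endothelial and pericyte markers only Cldn5 was, with siFoxO6-2 (0.51, limma adjusted p = 0.0404). The part of these markers in the levels of the replication genes was not tested.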

How the data were processed

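Spot intensities (mean and median over pixels, with local background) were used as deposited by the authors, per the file headers without correction; the scanning program is not given in the sources used here. A deposited table of log2 ratios, siRNA over scrambled, served as an alternative, and how the authors made it is not given in the sources used here. Of 45220 spots, 4046 were controls and 41174 gene probes, of which 34186 paired with 1 symbol. Mean intensities were corrected by normexp (offset 50) and then loess-normalized array by array; control spots had weight 0 in the loess curve. A signal counted as above the empty spots when it was brighter than the 97.5 percentile of the 959 empty controls on that array and in that channel.

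Log2 ratios were fitted with limma 3.58.1 (R 4.3.3, lmFit and eBayes) with 1 coefficient per siRNA, signed by dye, and a dye term, on 5 residual degrees of freedom. Tests were two-sided with Benjamini-Hochberg adjustment over 25310 features. The procedure was tested on simulated data. The 37 members and the other lists were chosen with earlier results of these data known. Of 189 listed genes, 171 matched by symbol, 10 by synonym and 8 did not match. All members were named, and array values were printed for called members (at most 14, by smallest adjusted p) and Pcna; from other lists at most 4 called genes were named, with the markers given beside them. Same-numbered pools were checked for pairing: the correlations of their deviations from the group means were 0.53, 0.22, -0.10 and -0.27, so the numbers were not taken as pairs. The number of arrays limits the precision. Alternatives covered background, normalization, pixel statistic, dim probes, dye term, block, table, probe rule, variance model, array weights, arrays in the fit and each array left out.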

Additional observations from a re-analysis of the deposited data

Results flagged for a closer look

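Rrm1, the large subunit of ribonucleotide reductase, stood at -0.57 on siFoxO6-3 replicate 4, against 0.24, 0.29 and 0.16 on siFoxO6-3 replicates 1, 2 and 3, a gap that passed Dixon's test for 1 value far from the others. It was the 1 flag among 74 groups of 4 arrays tested, and chance flags about 1 group in 20. The same array gave the lowest siFoxO6-3 value for 23 of the 37 replication genes.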

How the results depend on the processing

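With siFoxO6-2, 18 of the 37 genes were called (17 fell and Rpa3 rose). That count was 0 with median centring, 10 with a trended robust variance, 9 with the siFoxO6-2 arrays alone and 0 with the scrambled pool taken to vary as an siRNA pool; leaving out 1 array at a time gave 5 to 21. The median of the 37, -0.43, was 0.017 with median centring and -0.30 with the mean of all probes of a gene. After centring, Pole2 (0.0047), Prim2 (0.097) and Tyms (0.075) turned positive. The other settings kept all 17 falls below 0. With siFoxO6-3, 1 gene was called; the count was 0 with median centring, 2 with the median over pixels, 2 without the dye term, 0 with a replicate block, 0 with a trended robust variance, 4 with array weights, 0 with the siFoxO6-3 arrays alone, 5 without the 3 least-alike arrays, 0 with the scrambled pool taken to vary, and 0 to 5 with 1 array left out (5 without siFoxO6-2 replicate 3). The median, -0.01, was 0.41 with centring. Most of these counts of calls stand without the calls over all features in the same setting, so they show no change particular to these genes. In siFoxO6-3 minus siFoxO6-2, array weights gave 1 call, Tyms (limma adjusted p = 0.0415). With these weights 13.3% of all features had an unadjusted p under 0.05 in that comparison, against 7.26% in the main fit. That share was 14.6% without siFoxO6-2 replicate 3 and 12% without the 3 least-alike arrays. With the replicate block, 11 of the 17 falls with siFoxO6-2 were still called; same-numbered pools were not shown to be pairs. The E2F-type count was 5 in the 250 bases before the start alone, which is a shorter window. Leaving out the 3 least-alike arrays and varying the scrambled pool were chosen after seeing the data. A slide or scan block was not run, since the files used here give neither. Fits with fewer arrays also had fewer residual degrees of freedom; the cause of the other changes was not tested. With 4 pools per siRNA, a single-gene difference whose interval held 0 could not be told from 0. An interval above 0 did not make a call, since none of the 37 differences was called after adjustment in the main fit. With 1 scrambled pool, that pool's own deviation is part of every ratio against it.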
